A study of Triticum aestivum with 6 samples.

Results

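The short arms of the homoeologous group 1 chromosomes of bread wheat (Triticum aestivum), 1BS, 1AS and 1DS, were described by leaf RNA sequencing. Genes were chosen by their IDs, which name the chromosome arm, and by level. FPKM (fragments counted on a transcript, relative to its length and to the size of the library) was summed over the transcripts of a gene. Genes with at least 1 FPKM in both growth conditions and a mean under 100 FPKM were kept and are called scored genes below. Of 4268 gene IDs on the 3 arms, 1408 were scored: 447 of 1465 on 1BS, 527 of 1539 on 1AS and 434 of 1264 on 1DS. Over the whole table, 36956 of 99386 gene IDs were scored.

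The study grew wheat in separate chambers, one at 4 °C and one at 23 °C, and made 3 leaf libraries per temperature. The 4 °C libraries are labelled 4 weeks, and the 23 °C libraries 2 weeks. All 6 libraries are labelled with an 18:3 lipid phenotype and shared a 16-hour photoperiod at a light intensity of 120 μmol per square metre and second; no cultivar is named. Temperature, chamber and labelled weeks changed together and cannot be told apart. The deposited table has 1 value per gene transcript and condition and none per library. No difference below therefore has a replicate check, an SD or a p-value, the sequencing depth is unknown, and medians and shares over genes describe these 2 columns alone. In leaf tissue, fewer cells of a type and less RNA per cell cannot be told apart. The IDs matched 0 entries of the RefSeq gene table, so genes have no names, functions, coordinates or sequences here, and the leaf label could not be checked against marker genes.

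As background, bread wheat is a hexaploid whose A, B and D subgenomes came from related diploid grasses. Each chromosome has a counterpart, or homoeologue, in the other subgenomes, with largely the same genes in largely the same order. The short arms of group 1 are known for the gliadin and low-molecular-weight glutenin loci, whose storage proteins are made in the endosperm of the grain and not in leaves. They are also known for clusters of disease resistance genes, and 1BS for a major nucleolus organizer, an array of ribosomal RNA genes. In many cultivars the short arm of 1B is replaced by its rye counterpart; which arm these plants carried was not tested. Because copies on homoeologous arms are alike in sequence, reads can be assigned to the wrong copy, and the 3 arms are not fully separate measurements.

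The first comparison asked what share of each arm's genes was expressed in leaves. It was lowest on 1BS, where 30.5% of gene IDs were scored, against 34.2% on 1AS and 34.3% on 1DS. The share over all gene IDs of the table was 37.2%. The difference of 1BS was -3.73 percentage points from 1AS and -3.82 from 1DS. At 4 °C alone, 33.5% of 1BS genes reached 1 FPKM, against 38.3% on 1AS and 39.9% on 1DS. At 23 °C alone the shares lay closer together, at 35.4% on 1BS, 37.9% on 1AS and 38.8% on 1DS.

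The genes that were not scored fell into several classes. Genes listed at 0 in both conditions made up 34.6% of the IDs on 1BS, 32.5% on 1AS and 29.4% on 1DS, against 27.3% in the whole table. Genes above 0 but under 1 FPKM in both conditions took similar shares, with 21.0% on 1BS, 19.1% on 1AS and 20.6% on 1DS. The arms differed more in genes that reached 1 FPKM in a single condition. On 1BS, 31 genes reached it at 4 °C alone and 59 at 23 °C alone. On 1AS these counts were 54 and 48, and on 1DS 62 and 48. The whole table had 3978 at 4 °C alone and 3801 at 23 °C alone. Among genes above 0 in both conditions, those at 4 °C alone made up 1.98% of IDs on 1BS, 3.25% on 1AS and 4.75% on 1DS. Their share of the whole table was 3.77%. Those at 23 °C alone made up 3.89% on 1BS, 3.12% on 1AS and 3.80% on 1DS, against 3.66% of the whole table. Few genes of 1BS thus reached 1 FPKM at 4 °C alone, while its share at 23 °C alone lay near that of the table. A mean of 100 FPKM or more kept out 13 genes of 1BS, 9 of 1AS and 8 of 1DS.

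**Figure D1:**
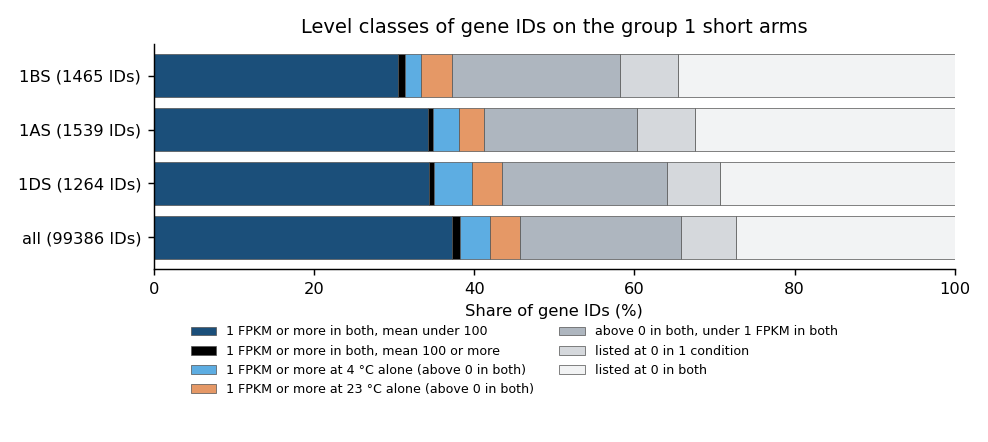
Shares of gene IDs (horizontal axis, percent) by level class for 1BS, 1AS, 1DS and the whole table, 1 bar each. The dark blue segment of scored genes is shortest on 1BS, at 30.5%, and the segment of genes that reached 1 FPKM at 4 °C alone is also narrowest there.

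The rule's limit of 1 FPKM cut through a dense range of values. The gene of 1BS just inside it had 1.005 FPKM at 4 °C but 1.68 FPKM at 23 °C, and the one just outside 0.9997 FPKM at 4 °C but 2.12 FPKM at 23 °C. Among genes with a mean under 100 FPKM, the lower of the 2 values lay from 1 to under 1.2 FPKM in 33 genes of 1BS, 26 of 1AS and 23 of 1DS. It lay from 0.8 to under 1 FPKM in 24 genes of 1BS, 39 of 1AS and 33 of 1DS. With a limit of 0.5 FPKM in both conditions, the share was 36.0% on 1BS, 41.8% on 1AS and 42.2% on 1DS, a wider gap than at 1 FPKM. At the upper limit, the highest scored gene of 1BS had a mean of 95.4 FPKM, and the next, left out, a mean of 107.7 FPKM.

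The long arms of the same chromosomes showed a gap in the same direction. On 1BL, 41.5% of gene IDs were scored, against 44.0% on 1AL and 44.1% on 1DL. Each short arm had a lower share than its own long arm, with differences of -10.99 percentage points on 1B, -9.76 on 1A and -9.75 on 1D. In counts of arms, chromosome 3B, which the gene IDs do not split, is taken as 1 arm. Among 39 arms of the table, leaving out 6AS and 6AL with their low values, 1BS had the lowest share. Of these arms, 7 were lower than 1AS and 8 lower than 1DS. The arm of the B subgenome was the lowest of its homoeologous group in 6 of 9 other groups outside groups 3 and 6. A low share on a B arm was thus common in this table. Group 3 was left out because the gene IDs do not split 3B into arms. The range over the 3 arms was 3.82 percentage points in the short arms of group 1 and 2.41 to 7.20 in those 9 groups.

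The second comparison asked whether scored genes of the 3 arms differed in level. At 4 °C the median was 4.79 FPKM on 1BS, 4.90 FPKM on 1AS and 6.04 FPKM on 1DS. At 23 °C it was 4.94 FPKM on 1BS, 4.57 FPKM on 1AS and 5.26 FPKM on 1DS. The order of 1BS and 1AS thus turned with temperature, while 1DS was highest in both columns. The median of 1BS was 0.978 times that of 1AS at 4 °C and 1.08 times at 23 °C. Against 1DS it was 0.793 times at 4 °C and 0.939 times at 23 °C. Over all scored genes of the table the median was 5.39 FPKM at 4 °C and 4.93 FPKM at 23 °C.

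At 4 °C the quartiles followed the same order as the medians. The lower quartile was 2.29 FPKM on 1BS, 2.53 FPKM on 1AS and 2.75 FPKM on 1DS, and the upper quartile 11.5 FPKM on 1BS, 11.9 FPKM on 1AS and 13.6 FPKM on 1DS. At 23 °C the lower quartiles were nearly equal, at 2.49 FPKM on 1BS, 2.51 FPKM on 1AS and 2.52 FPKM on 1DS. The upper quartiles there were 9.84 FPKM on 1BS, 10.5 FPKM on 1AS and 11.9 FPKM on 1DS, so 1BS lay below 1AS in the upper quartile and above it in the median. The 10 highest genes of each arm held 17.9% of the FPKM of scored genes on 1BS, 15.9% on 1AS and 18.9% on 1DS at 4 °C, so no arm depended on a few genes much more than the others. The comparison of 1BS with 1AS at 23 °C changed direction with the processing. The ratio was 0.928 among genes with at least 5 FPKM in both conditions and 0.991 when the most abundant transcript stood in for the sum.

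**Figure D2:**
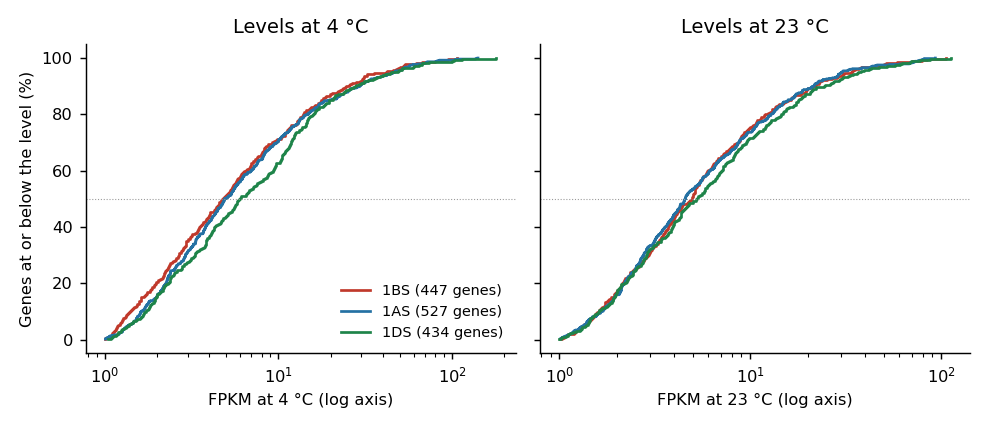
Cumulative share of scored genes (vertical axis, percent) by FPKM on a log axis, at 4 °C and at 23 °C, with 1 line per arm. The line of 1DS runs to the right of the others around the dotted median line, at 6.04 FPKM at 4 °C, and the lines of 1BS and 1AS lie close together.

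The third comparison asked how the genes of the 3 arms differed between 4 °C and 23 °C. Genes on 1BS were as often at least 2-fold lower as at least 2-fold higher at 4 °C, while on 1AS and 1DS higher genes outnumbered lower ones. The response is the log2 of FPKM at 4 °C over FPKM at 23 °C, with no pseudocount, since every scored gene has at least 1 FPKM in both. On 1BS, 47 of 447 genes (10.5%) were at least 2-fold higher, against 78 of 527 (14.8%) on 1AS and 67 of 434 (15.4%) on 1DS; over all scored genes of the table the share was 13.5%. At least 2-fold lower were 47 genes (10.5%) on 1BS, 41 (7.78%) on 1AS and 27 (6.22%) on 1DS, with 7.81% over all scored genes. The share of 1BS thus lay below the background among higher genes and above it among lower ones, and that of 1AS close to the background among lower genes.

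The same contrast was seen across the distribution. The median response was 0.02 on 1BS, 0.17 on 1AS and 0.12 on 1DS, against 0.11 over all scored genes. A higher value at 4 °C, however small the difference, was found in 51.2% of the genes on 1BS, 58.6% on 1AS and 56.9% on 1DS, against 56.2% over all scored genes. The response at the 10th percentile was -1.02 on 1BS, -0.87 on 1AS and -0.77 on 1DS. At the 90th percentile it was 1.02 on 1BS, 1.19 on 1AS and 1.35 on 1DS. Both ends of 1BS were therefore lower than those of the other arms, by less than 0.4 on this scale. Summed over scored genes, FPKM at 4 °C was 1.11 times that at 23 °C on 1BS, 1.22 times on 1AS and 1.19 times on 1DS. Over all scored genes of the table it was 1.19 times.

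**Figure D3:**
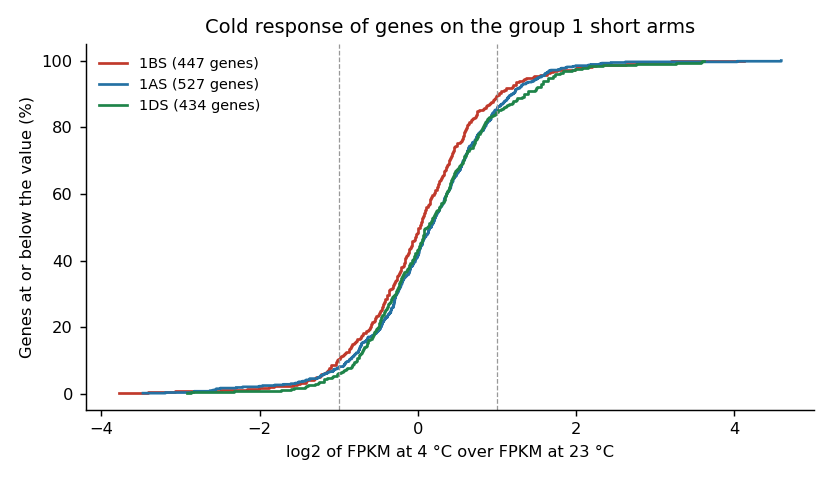
Cumulative share of scored genes (vertical axis, percent) by the log2 of FPKM at 4 °C over FPKM at 23 °C, with 1 line per arm and dashed lines at 2-fold. The line of 1BS lies to the left of the others through the middle, with a median of 0.02, against 0.17 on 1AS and 0.12 on 1DS.

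Large responses did not separate the arms in the same way. At least 4-fold higher at 4 °C were 11 genes of 1BS (2.46%), 8 of 1AS (1.52%) and 11 of 1DS (2.53%), against 3.15% over all scored genes. At least 4-fold lower were 8 genes of 1BS (1.79%), 12 of 1AS (2.28%) and 4 of 1DS (0.92%), against 1.39% over all scored genes. All 3 arms lay below the background among genes at least 4-fold higher, but with 8 to 11 genes each. So few genes do not set the arms apart from that share. Genes with at least 10 FPKM in one condition and under 1 FPKM in the other, which the rule leaves out, numbered 0 on 1BS. On 1AS there were 6 (0.39% of its IDs) and on 1DS 2 (0.16%). All 8 had the higher value at 4 °C. The table holds 251 such genes on at 4 °C, or 0.253% of all IDs, and 83 on at 23 °C, or 0.084%. Counts this small do not set the arms apart from these shares.

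Among scored genes whose mean reached 5 FPKM, those with the largest responses lay on 1BS and 1AS. Traes_1AS_10120B2AE reached 51.6 FPKM at 4 °C, against 2.14 FPKM at 23 °C, which is 24.1-fold higher in the cold. It has 3 transcripts, of which the same one led in both conditions with 86.4% of the gene's FPKM at 4 °C and 84.0% at 23 °C. Traes_1BS_58B4D7271 reached 24.3 FPKM at 4 °C, against 1.40 FPKM at 23 °C, and was 17.3-fold higher. Its leading transcript was also the same in both conditions, so neither gene had another leading transcript in the cold.

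In the other direction, Traes_1BS_E72B7E4BF was at 1.72 FPKM at 4 °C, against 23.7 FPKM at 23 °C, and so 13.8-fold lower. Traes_1AS_60C6924681 was at 1.32 FPKM at 4 °C, against 14.7 FPKM at 23 °C, and so 11.1-fold lower. Both genes kept their leading transcript as well, with 4 transcripts each. In Traes_1AS_60C6924681 that transcript was at 0.67 FPKM at 4 °C, under the limit of 1 FPKM, and held 50.6% of the gene's FPKM there. On 1DS the extremes were smaller in both directions. The gene with the largest ratio there was at 16.2 FPKM at 4 °C, against 1.32 FPKM at 23 °C, and the one with the smallest was at 1.96 FPKM at 4 °C, against 14.8 FPKM at 23 °C. The functions of these genes are not known here.

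The response was also compared between genes of like level. Below a mean of 5 FPKM the median response was -0.12 on 1BS, 0.05 on 1AS and 0.02 on 1DS, and from 5 FPKM up it was 0.14 on 1BS, 0.31 on 1AS and 0.19 on 1DS. The gap of 1BS to 1AS was thus alike in both ranges, and the gap to 1DS was wider among low genes. At the lowest levels, from 1 to under 2 FPKM on average, the median response was -0.21 on 1BS (71 genes), 0.02 on 1AS (71 genes) and -0.004 on 1DS (60 genes). From 2 to under 5 FPKM it was -0.09 on 1BS, 0.06 on 1AS and 0.04 on 1DS. In this class 23 of 153 genes on 1BS (15.0%) were at least 2-fold lower, against 16 of 189 (8.47%) on 1AS and 7 of 122 (5.74%) on 1DS, with 9.47% over all scored genes of that level.

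At higher levels the gap between the arms varied from class to class. From 5 to under 10 FPKM the median response was 0.07 on 1BS, 0.20 on 1AS and 0.21 on 1DS. At least 2-fold higher were 10 of 92 genes on 1BS (10.9%), 19 of 115 on 1AS (16.5%) and 24 of 110 on 1DS (21.8%). The share over all scored genes of that level was 13.8%, and 1DS lay furthest from it. From 10 to under 20 FPKM the arms were close, with medians of 0.15 on 1BS, 0.14 on 1AS and 0.16 on 1DS. Here the share at least 2-fold higher was largest on 1BS, with 17 of 82 genes (20.7%). It was 13 of 83 (15.7%) on 1AS and 14 of 84 (16.7%) on 1DS, with 17.5% over all scored genes of that level. From 20 to under 100 FPKM the median response was 0.35 on 1BS (49 genes), 0.63 on 1AS (69 genes) and 0.35 on 1DS (58 genes). In this class 8 of 49 genes on 1BS (16.3%) were at least 2-fold higher, against 25 of 69 (36.2%) on 1AS and 13 of 58 (22.4%) on 1DS, with 23.4% over all scored genes of that level. Among genes with at least 5 FPKM in both conditions, the share at least 2-fold lower no longer set 1BS apart, at 5.03% on 1BS, 6.19% on 1AS and 5.53% on 1DS, with 5.17% over all such genes. The share at least 2-fold higher was 11.7% on 1BS, 18.1% on 1AS and 13.6% on 1DS, with 12.8% over all such genes, so 1BS and 1DS lay near that share and 1AS above it.

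**Figure D4:**
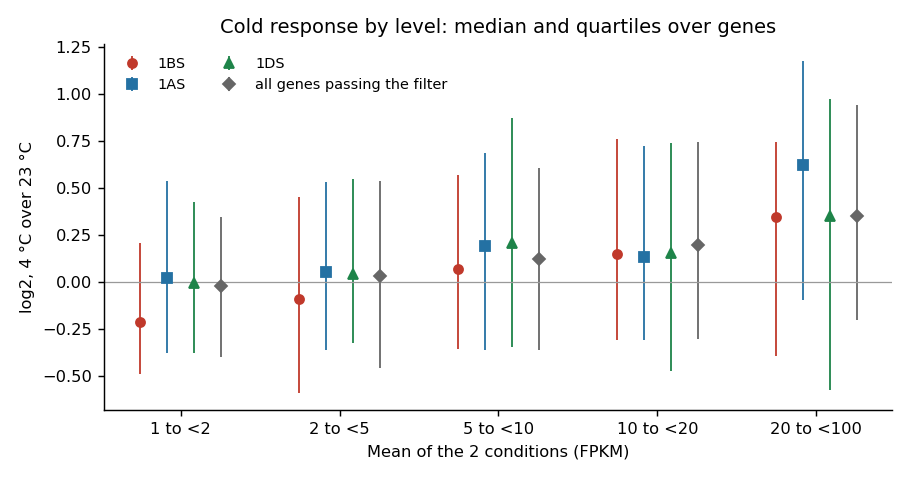
Median response (points) with quartiles over genes (bars) in 5 classes of mean FPKM, for 1BS, 1AS, 1DS and all scored genes of the table. 1BS lies below the other arms in the lower classes, at -0.21 from 1 to under 2 FPKM, and near 1DS from 20 to under 100 FPKM, where 1AS is highest at 0.63; the bars overlap in every class.

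The arms also differed in how many transcripts their genes have in the table. The level rule used FPKM summed over transcripts, so transcript number among scored genes is not independent of the rule. Scored genes had 6.31 transcripts on average on 1BS, 4.37 on 1AS and 6.22 on 1DS, against 5.83 over all scored genes. Genes with 1 transcript made up 14.5% of the scored genes on 1BS, 28.8% on 1AS and 15.0% on 1DS. Of the 1BS gene IDs with 1 transcript, 65 of 636 (10.2%) were scored, against 152 of 755 (20.1%) on 1AS and 65 of 507 (12.8%) on 1DS, with 17.3% over all such IDs of the table. Among IDs with several transcripts the shares were closer, at 46.1% on 1BS, 47.8% on 1AS and 48.7% on 1DS, and all lay below the 52.3% of the whole table.

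The response differed with transcript number too. Among scored genes with 1 transcript, the median response was -0.17 on 1BS, 0.23 on 1AS and 0.34 on 1DS, and 14 of 65 genes of 1BS (21.5%) were at least 2-fold lower, against 15 of 152 (9.87%) on 1AS and 5 of 65 (7.69%) on 1DS. Over all scored genes with 1 transcript the median was 0.15, and 9.49% were at least 2-fold lower. Among those with several transcripts it was 0.04 on 1BS, 0.14 on 1AS and 0.08 on 1DS, and at least 2-fold lower were 8.64% on 1BS, 6.93% on 1AS and 5.96% on 1DS. Over all scored genes with several transcripts the median was 0.10, and 7.39% were at least 2-fold lower. The order of the arms in lower genes was the same in both classes, and the gap was wider among genes with 1 transcript. The part of transcript number in the difference between arms was not tested.

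Another leading transcript at 4 °C was about as common on the 3 arms as elsewhere. In scored genes that had several transcripts and reached 5 FPKM in each condition, it was found in 22 of 161 genes on 1BS (13.7%), 21 of 162 on 1AS (13.0%) and 24 of 169 on 1DS (14.2%), against 12.7% over all such genes. These were nearly all genes without a clear leading transcript. Among genes with a transcript at 60% or more of the FPKM at 4 °C and also at 23 °C, the leading one differed in 0 of 82 on 1BS, 1 of 96 on 1AS and 1 of 91 on 1DS, and in 52 of 7414 over the table. The leading transcript held a median of 62.6% of a gene's FPKM at 4 °C on 1BS, 72.0% on 1AS and 66.7% on 1DS.

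Genes with a mean of 100 FPKM or more, which the rule leaves out, were mostly higher at 4 °C. This held for 8 of 13 genes on 1BS, 8 of 9 on 1AS and 7 of 8 on 1DS, with 58.2% over the 1063 genes of the table at that level and with at least 1 FPKM in both conditions. At least 2-fold higher at 4 °C were 5 of these genes on 1BS (38.5%), 2 on 1AS (22.2%) and 3 on 1DS (37.5%), with 23.5% over those 1063. The smaller share of higher genes on 1BS was thus not seen at this level. At least 2-fold lower was 1 gene on 1BS and 0 on 1AS and 1DS, with 12.4% over those 1063. So few genes do not set the arms apart from either share. One gene of 1AS reached 1003 FPKM at 4 °C, against 81.6 FPKM at 23 °C. Summed over all gene IDs of an arm, FPKM at 4 °C was 1.14 times that at 23 °C on 1BS, 1.38 times on 1AS and 1.24 times on 1DS. Over all gene IDs of the table it was 1.08 times, so each of these arms lay above the table. Without the highest gene of each arm, the ratio was 1.11 on 1BS, 1.23 on 1AS and 1.28 on 1DS. The order of 1AS and 1DS thus rested on that gene of 1AS.

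The contrast among the short arms of group 1 was set beside that in other homoeologous groups. The median response had a range of 0.15 over the 3 short arms of group 1, against 0.01 to 0.08 in 9 other groups outside groups 3 and 6. The range of the share at least 2-fold higher was 4.92 percentage points, against 0.74 to 3.84 in those groups, and that of the share at least 2-fold lower was 4.29, against 0.93 to 2.45. The long arms of group 1 had ranges of 0.04 in median response, 1.21 points among higher genes and 1.12 points among lower genes. The contrast was thus larger on the short arms than on the long arms of the same chromosomes. The short arms also had fewer scored genes, with 447 on 1BS, 527 on 1AS and 434 on 1DS. The long arms had 1126 on 1BL, 1151 on 1AL and 1106 on 1DL. On the short arms of group 5, 447 genes of 5BS, 464 of 5AS and 454 of 5DS were scored. Ranges there were 0.08 in median response, 1.81 points among higher genes and 1.89 points among lower genes. Medians and shares over fewer genes vary more, and the part of gene number was not tested. In group 6, in which 6A has low values, the range of the median response was wider than on the group 1 short arms, at 0.16 on the short arms and 0.25 on the long arms. The ranges of the shares there were 5.27 points among higher and 5.34 among lower genes on the short arms, and narrower than on the group 1 short arms, at 1.11 and 3.59 points, on the long arms. The table has 41 arms when 3B is taken as 1 arm. Of these, 1 arm, 6DS, had a lower median response than 1BS and a larger share of genes at least 2-fold lower, at 13.1%. The share at least 2-fold higher was lower than on 1BS on 2 arms, 6BS (9.35%) and 6DS (10.3%), and that of 2BS was nearly equal at 10.6%.

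**Figure D5:**
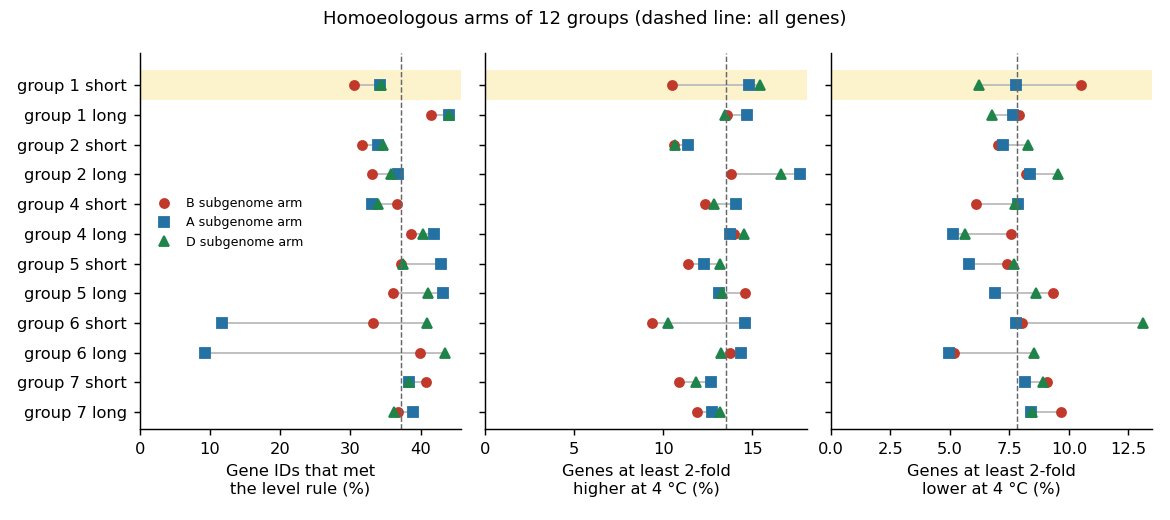
Share of gene IDs scored and shares of scored genes at least 2-fold higher or lower at 4 °C (horizontal axes, percent) for the B, A and D arms of 12 homoeologous groups, 1 row each. Group 3 is not shown, because 3B is not split into arms. 4AL is placed with 4BS and 4DS, and 4AS with 4BL and 4DL. In the top row, the short arms of group 1, 1BS stands apart at 10.5% in both the middle and the right panel, and 1AS and 1DS lie together in the left panel.

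Scaling of the columns shifted all arms alike. The median response of all scored genes was 0.11 as deposited, 0.02 when the columns were scaled by the median of ratios, and -0.06 when quantile normalization made their distributions equal. Relative to that median, the response in the deposited values was -0.08 on 1BS, 0.06 on 1AS and 0.02 on 1DS. After quantile normalization it was -0.08 on 1BS, 0.06 on 1AS and 0.01 on 1DS. Of the genes that differed at least 2-fold in the deposited values, as many were higher as lower on 1BS. On 1AS 65.5% were higher and on 1DS 71.3%, with 63.4% over all such genes of the table. After quantile normalization 34.7% were higher on 1BS, 47.7% on 1AS and 55.6% on 1DS, with 48.4% over all such genes. The share of 1AS thus lay near that of the table both times. The balance between higher and lower genes on an arm therefore depended on scaling, and the order of the arms did not under these 2 scalings.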

How the data were processed

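Leaf RNA of 6 libraries, 3 at 4 °C and 3 at 23 °C, was sequenced. The submitters' processing notes name Cuffdiff 2.1.1, Cufflinks 2.1.1, STAR 2.3.0e, Trimmomatic 0.30 and CASAVA 1.8.2. Neither their roles nor a build or annotation was found in these sources. The authors deposited FPKM values of 442311 transcripts, of which 57882 have no gene ID and so no arm. Of the columns, per the file headers, cold was taken as 4 °C and control as 23 °C. How the authors combined libraries is not stated there.

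FPKM was summed per gene ID, and scored genes were compared by counts, medians and the plain ratio of the columns, with Python 3.11.15, numpy 2.4.6 and pandas 2.3.3. No test was made, because no value belongs to a single library. The counting step was checked on simulated data. The named genes are the 2 largest rises and the 2 largest falls among scored genes of the 3 arms with a mean of at least 5 FPKM. The arms and the rules were chosen with earlier results of these data known. IDs were looked up in RefSeq genes of IWGSC CS RefSeq v2.1, and 0 matched, so no list of named genes was applied. Alternatives were other level limits, pseudocounts of 1 and 0.1, scaling, transcript choices and, added after seeing the data, equal weight of 5 level classes.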

Additional observations from a re-analysis of the deposited data

How the results depend on the processing

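No paired analysis was possible because no column belongs to a single library; for that reason no library could be left out either, and depth is unknown. Differences and ratios were taken as moved at any change in the printed digits, and counts at a change of over 1.5 times. In each case the cause was not tested, beyond that stricter rules leave fewer genes. The share of gene IDs scored on 1BS minus that on 1AS and on 1DS was -5.87 and -6.20 percentage points at 0.5 FPKM in both columns, -1.43 and -3.53 at 5 FPKM, -2.38 and -6.11 at any value above 0, -9.91 and -2.60 for IDs with 1 transcript, and -3.43 and -3.57 with no upper limit. The median level of 1BS over that of 1AS at 4 °C and at 23 °C was 0.941 and 0.928 at 5 FPKM in both columns, 0.973 and 1.089 with no upper limit, 0.934 and 0.991 for the most abundant transcript, and 0.783 and 1.025 for IDs with 1 transcript. Over that of 1DS these values were 0.967 and 0.917, 0.817 and 0.935, 0.846 and 0.976, and 0.424 and 0.723. The median response of 1BS minus that of 1AS and of 1DS, -0.15 and -0.10 as reported, was -0.10 and -0.01 at 5 FPKM in both columns, -0.40 and -0.51 for IDs with 1 transcript, -0.13 and -0.13 for the most abundant transcript, -0.11 and -0.08 with a pseudocount of 1, and -0.14 and -0.14 with that pseudocount and a mean of at least 1 FPKM. Against 1DS it was -0.11 with columns scaled by the median of ratios and -0.09 with quantile normalization. It kept its printed values in 8 of 20 comparisons, equal weight of the level classes among them, and its direction in each of the 20. Genes at least 2-fold higher on 1BS, 1AS and 1DS numbered 21, 38 and 27 at 5 FPKM in both columns and 6, 23 and 13 for IDs with 1 transcript; those at least 2-fold lower numbered 9, 13 and 11, and 14, 15 and 5. With a pseudocount of 1, 26 were lower on 1BS and 17 on 1DS, and after quantile normalization 44 on 1DS. The other 39 of 54 counts stayed within 1.5 times. The share at least 2-fold higher was smaller on 1BS than on 1AS and 1DS in 10 of 10 settings, and the share at least 2-fold lower was larger on 1BS than on 1AS in 7 and than on 1DS in 9 of 10. The 3 exceptions against 1AS were 5 FPKM in both columns, a pseudocount of 1, and that pseudocount with a mean of at least 1 FPKM. Against 1DS the exception was 5 FPKM in both columns.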
